A study of Homo sapiens with 2 samples.

Results

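The genes described here encode proteins that write, erase and read chemical marks on histones and DNA, or that move nucleosomes. They were taken by name from a table of RNA levels in SBC5, an established cell line of small cell lung cancer, in 2 forms. One library came from parental cells and 1 from cisplatin-resistant cells, which had been treated stepwise with the DNA-crosslinking platinum drug cisplatin at 1, 2, 4 and 20 µg/ml. Both forms were grown in the same serum-supplemented medium, and the labels do not say whether the resistant cells were a clone or were still in the drug when RNA was taken. Names starting with KDM, KMT, SETD, NSD, HDAC, SIRT, KAT, SMARC, ARID, CBX, DNMT, BRD, BAZ, PCGF or PHF were members. So were names starting with CHD, TET or ING followed by a digit. The rule also listed 12 single genes such as EZH2, SUZ12 and CTCF. This gave 157 genes of 12494 names, from 217 loci. The name rule also took 8 genes whose proteins have other main tasks, among them the microtubule-severing katanins, the sterol enzyme NSDHL and the splicing factor PHF5A, and 3 names with no role assigned (SETD9, the antisense RNA KMT2E-AS1 and the pseudogene CBX3P2).

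Histone tails carry acetyl and methyl groups that are placed by acetyltransferases and methyltransferases, removed by deacetylases and demethylases, and bound by proteins with bromodomains, chromodomains and PHD fingers. Polycomb complexes keep developmental genes silent, heterochromatin proteins compact silent regions, and the SWI/SNF, ISWI and CHD enzymes use ATP to slide or evict nucleosomes. Genes of this machinery are often mutated in small cell lung cancer.

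Levels are in FPKM, which scales the fragments of a locus by its length and by the size of the library. All 157 genes reached 1 FPKM in at least 1 library and entered a comparison of 12405 genes. Where a pair of values is given, that of the parental library comes first. How many fragments stand behind a value is unknown. With 1 library per group there was no replicate and no test, so each difference describes these 2 libraries. For the log2 ratio, a pseudocount of 1 FPKM was added to both libraries and resistant was divided by parental, and a ratio of at least 1 or at most -1 (2-fold) replaced a test. This scale understates the change of genes of low level. Of the markers of neuroendocrine small cell lung cancer, SYP had 8.56 and 8.62 FPKM and NCAM1 0.821 and 1.64 FPKM, while YAP1, a marker of its non-neuroendocrine form, had 76.6 and 84.7 FPKM. NEUROD1, INSM1, CHGA and POU2F3 were not analysed here.

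Most of the chromatin machinery had nearly the same RNA level in both forms of the cells. Of the 157 genes, 3 were at least 2-fold higher in the resistant library, where the share among all genes compared was 3.28%, and 1 was at least 2-fold lower, where that share was 2.70%. Either way these were 4 of 157 genes (2.55%), against 5.98% of all genes compared. The 3 higher genes were PCGF5, ARID5B and HDAC10, and the lower gene was CHD6. The median log2 ratio was -0.044 over the 157 genes and -0.037 over all genes compared. Ratios lay within 0.5 of 0 for 144 of the 157 genes (91.7%) and for 82.7% of all genes compared. The comparison was also made at like level: among genes with a mean of 4.69 to 98.7 FPKM, the range from the 5th to the 95th percentile of the members, 92.2% of 141 members and 86.3% of 8853 genes lay within 0.5 of 0. Of the 157 genes, 69 lay above 0 and 88 below (56.1% below), where 55.6% of all genes compared lay below 0. The split moved with the scaling, to 44 above and 113 below when both libraries were scaled to an equal sum. It was 75 above and 82 below after division by the median ratio. The median over all genes compared moved as well, to -0.116 and -0.003. At a looser limit of 1.5-fold, 4 genes were higher, against 7.59% of all genes compared, and 6 were lower, against 6.59%. CHD5 joined the higher genes there, and RNF2, SMARCD2, CBX1, SMARCA1 and CHD7 joined the lower ones. The members nearest to the 2-fold limit were HDAC10 outside it (1.07) and RNF2 inside it (-0.73).

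**Figure D1:**
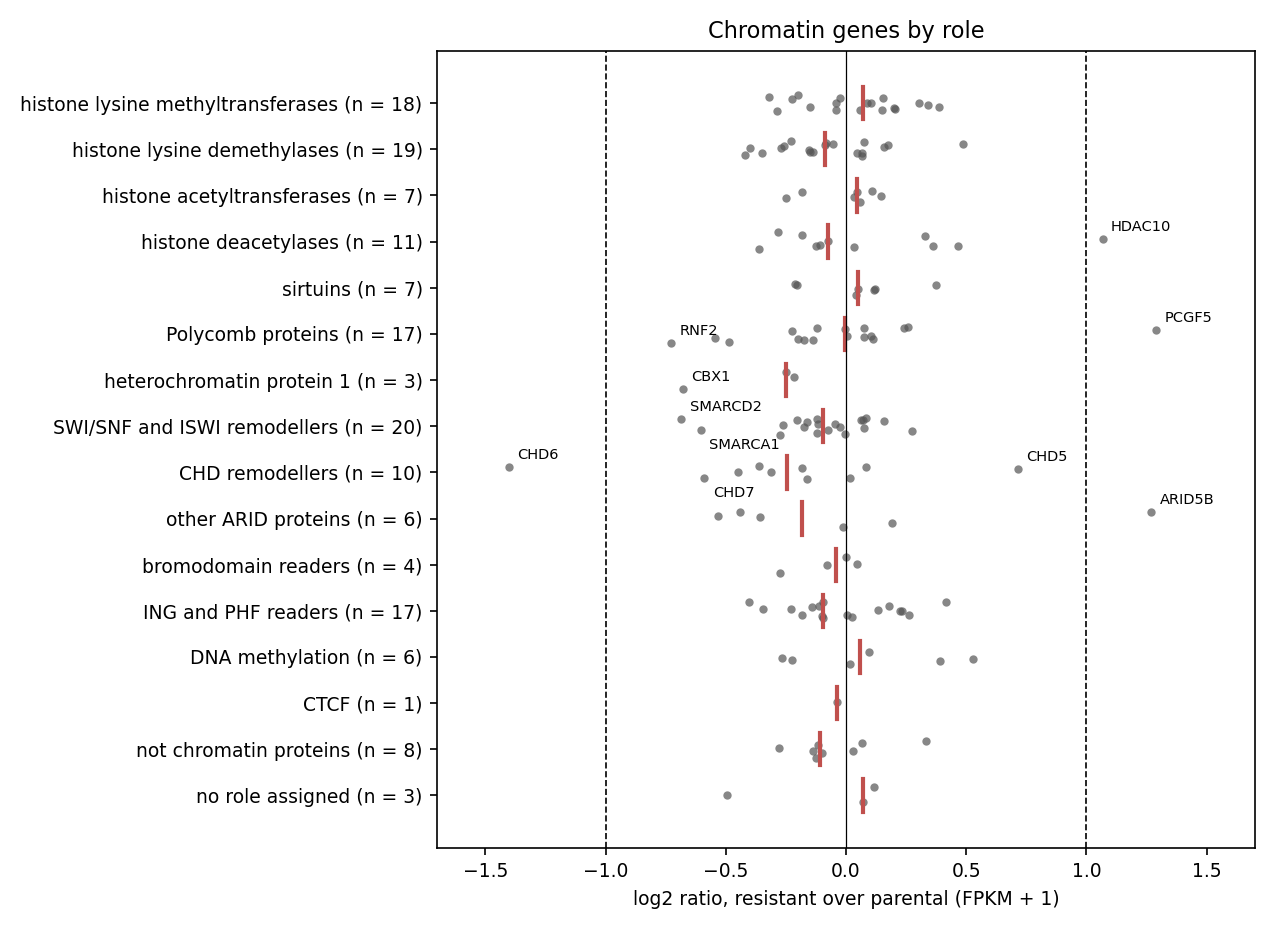
Log2 ratio of resistant over parental FPKM, each plus 1 (horizontal axis), for each of the 157 genes (points), in rows by role. Red bars are medians of a row and dashed lines mark 2-fold. PCGF5, ARID5B and HDAC10 lie to the right of the upper limit and CHD6 lies to the left of the lower one.

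The Polycomb group held the highest ratio of the set. PCGF5 encodes a RING-finger partner of the ubiquitin ligase RNF2 in a variant form of Polycomb repressive complex 1. It had 10.9 FPKM in the parental and 28.1 FPKM in the resistant library (log2 ratio 1.29, and 1.06 with a pseudocount of 5). RNF2, the ligase itself, had 24.5 FPKM in the parental and 14.4 FPKM in the resistant library (-0.73). Thus the levels of these partner genes differed in opposite directions, and their order was exchanged between the libraries. The other measured PCGF genes differed little: PCGF1 had 18.7 and 18.8 FPKM, PCGF3 13.6 and 14.3 FPKM, and PCGF6 19.9 and 17.5 FPKM. Of the summed FPKM of PCGF1, PCGF3, PCGF5 and PCGF6, PCGF5 made up 17.3% in parental and 35.7% in resistant cells. It thus passed from the lowest of the 4 genes to the highest. A further PCGF3 locus without an assigned strand, at 11.0 and 10.7 FPKM (-0.04), was left out of this sum. BMI1, a PCGF member of canonical complexes, was listed in a locus joined with COMMD3 and their readthrough transcript, at 97.9 and 117 FPKM (0.26). Reads of these genes could not be told apart in that locus.

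The sequence before the RefSeq start of each of these partner genes is shown because their levels differed in opposite directions, together with that of ARID5B, the other gene at least 2-fold higher in a strand-assigned locus. Each run is the 250 bases before the start, 5′ to 3′ on the plus strand of GRCh38.p14, with CG dinucleotides, the sites of DNA methylation, in capitals. The runs are chr10:91162762-91163011 for PCGF5, chr1:185045308-185045557 for RNF2 and chr10:61901449-61901698 for ARID5B.
PCGF5: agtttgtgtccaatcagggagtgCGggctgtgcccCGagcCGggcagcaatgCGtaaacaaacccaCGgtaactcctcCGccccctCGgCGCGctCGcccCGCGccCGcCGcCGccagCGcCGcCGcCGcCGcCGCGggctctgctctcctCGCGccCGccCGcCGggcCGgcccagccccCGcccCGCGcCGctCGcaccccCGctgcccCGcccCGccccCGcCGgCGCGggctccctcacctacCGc
RNF2: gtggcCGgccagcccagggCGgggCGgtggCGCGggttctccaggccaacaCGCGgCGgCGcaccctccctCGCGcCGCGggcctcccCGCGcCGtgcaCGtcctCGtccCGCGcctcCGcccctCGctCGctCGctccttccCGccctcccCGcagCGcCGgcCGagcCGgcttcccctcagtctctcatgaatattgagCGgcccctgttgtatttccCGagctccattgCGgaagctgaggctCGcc
ARID5B: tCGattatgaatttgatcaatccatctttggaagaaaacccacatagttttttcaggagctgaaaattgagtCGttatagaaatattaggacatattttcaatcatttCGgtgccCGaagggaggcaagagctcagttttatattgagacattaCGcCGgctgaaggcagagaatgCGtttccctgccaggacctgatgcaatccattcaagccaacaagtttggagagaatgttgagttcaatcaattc
PCGF5 had 41 CG dinucleotides at 80.4% G and C, RNF2 had 34 at 74.4%, and ARID5B had 7 at 40.4%. The genes PCGF5 and RNF2 thus both start beside CG-rich DNA although their levels differed in opposite directions. At least 10 CG dinucleotides, which read the same on both strands, were found in 113 of the 128 members with a RefSeq promoter (88.3%), in 86.7% of 9121 genes compared and in 51.9% of all 27305 promoters of that length. At least 1 was found in 99.2%, 99.3% and 93.6% of them. ARID5B was therefore among the minority below 10. The GENCODE model of ARID5B starts 399 bases before the RefSeq start and that of RNF2 194 bases before it, so those runs lie wholly or in part inside the longer models, whereas the PCGF5 starts coincide.

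Polycomb repressive complex 2 places the silencing methyl mark of the Polycomb system through EZH2 or EZH1, which work with SUZ12 and EED. SUZ12, the scaffold subunit, had 222 FPKM in the parental and 152 FPKM in the resistant library (log2 ratio -0.54), and EED, which binds the mark, had 19.2 and 13.4 FPKM (-0.48). EZH2, the main catalytic subunit in dividing cells, had 90.0 and 81.7 FPKM (-0.14). EZH1 had 6.66 and 7.06 FPKM (0.07), so EZH2 made up 93.1% and 92.0% of the EZH sum. The accessory factor PHF19, which recruits the complex to CG-rich DNA, had the highest level of all 157 genes, at 241 and 258 FPKM (0.10). ASXL1, a cofactor of the enzyme that removes the ubiquitin placed by RNF2, had 46.2 and 54.8 FPKM (0.24). The chromodomain genes CBX2, CBX6, CBX7 and CBX8 had ratios from -0.22 for CBX2 to -0.00 for CBX6. CBX6 was the most abundant of them, at 32.2 and 32.1 FPKM. Over the 17 Polycomb genes the median ratio was -0.00, with 8 genes above 0 and 9 below, and it was 0.03 after division by the median ratio and -0.09 once both libraries had an equal sum. RING1 was not analysed here.

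**Figure D2:**
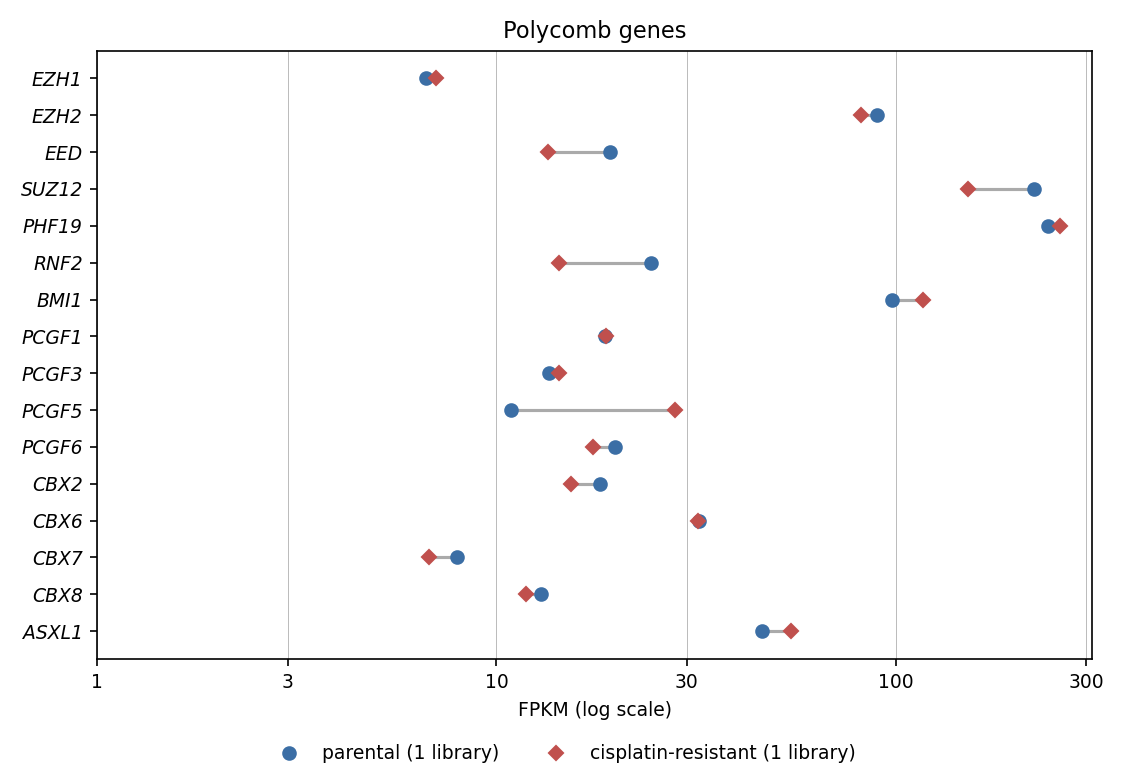
FPKM on a log axis (horizontal) of 16 Polycomb genes (rows) in the parental library (blue circles) and the cisplatin-resistant library (red diamonds), 1 library each. PCGF5 has the longest line, from 10.9 to 28.1 FPKM, and RNF2, SUZ12 and EED lie lower in the resistant library.

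Heterochromatin protein 1 comes in 3 forms, which bind methylated histone in silent regions, and the gene of each was lower in the resistant library. CBX1 had 151 FPKM in the parental and 94.0 FPKM in the resistant library (log2 ratio -0.68), and CBX3 had 137 and 118 FPKM (-0.21). CBX5 was represented by a locus without an assigned strand at 26.8 and 22.3 FPKM (-0.25), and its strand-assigned locus had 21.7 and 16.5 FPKM (-0.37). CBX3 and not CBX1 was therefore the most abundant of the 3 in resistant cells, with 50.3% of their sum against 43.6% in parental cells. All 3 ratios stayed below 0 after division by the median ratio, where CBX3 had -0.18.

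The CHD family of remodellers held the lowest ratio and also the highest ratio among remodellers. CHD6, a large helicase of the same subfamily as CHD7 and CHD8, had 25.9 FPKM in the parental and 9.20 FPKM in the resistant library (log2 ratio -1.40, and -1.12 with a pseudocount of 5). CHD7, in which mutations cause CHARGE syndrome, had 12.0 and 7.68 FPKM (-0.59). CHD8 had 15.5 and 16.4 FPKM (0.08) and CHD9 11.0 and 11.1 FPKM (0.02). Within the sum of CHD6 to CHD9, CHD6 made up 40.3% in parental and 20.7% in resistant cells, and CHD8 rather than CHD6 was the highest of the 4 in resistant cells. CHD3, CHD4 and CHD5 are alternative motor subunits of NuRD, a complex that joins remodelling to deacetylation. CHD4, the most abundant of them, had 77.6 and 60.2 FPKM (-0.36), and CHD3 had 60.8 and 54.2 FPKM (-0.16). CHD5, known for its expression in neurons, had 26.4 and 44.0 FPKM (0.72). A further CHD5 locus without an assigned strand had 4.24 and 13.1 FPKM (1.43), and the sum of both loci gave 0.88. By the representing loci alone, CHD5 made up 16.0% of the sum of CHD3 to CHD5 in parental and 27.8% in resistant cells. CHD1 had 11.6 and 8.25 FPKM (-0.45), CHD1L 31.9 and 25.5 FPKM (-0.31) and CHD2 14.0 and 12.2 FPKM (-0.18). The median over the 10 CHD genes was -0.25, and -0.21 after division by the median ratio, with 7 of 10 below 0 under both scalings. Once both libraries had an equal sum it was -0.33, with 8 of 10 below 0. The medians over all genes compared were -0.037, -0.003 and -0.116 in the same order. On the deposited scaling, 55.6% of all genes compared lay below 0.

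SMARCA4, an ATPase motor of SWI/SNF, stood out by its level rather than its difference. It had 4.94 FPKM in the parental and 6.18 FPKM in the resistant library (log2 ratio 0.27), the lowest level of the 20 SWI/SNF and ISWI genes in both libraries. The 9 other measured core and ARID subunits of SWI/SNF had 27.8 to 155 FPKM in parental cells (median 53.5) and 29.1 to 165 FPKM in resistant cells (median 53.5). FPKM is scaled to length, but which annotation gave the lengths is unknown. Levels of different genes can therefore be set side by side only roughly. SMARCA2, the alternative motor, was not analysed here. The core subunit SMARCC1 had 155 and 165 FPKM (0.08). ARID1A, the DNA-binding subunit often lost in cancers, had 78.0 and 77.7 FPKM (-0.01), and ARID1B had 27.8 and 29.1 FPKM (0.06). SMARCD2 had 89.9 and 55.6 FPKM (-0.68). Its alternatives SMARCD1 (39.9 and 39.2 FPKM, -0.02) and SMARCD3 (53.5 and 56.4 FPKM, 0.08) lay near 0 in their representing loci. Further SMARCD3 loci without an assigned strand were higher in the resistant library, at 12.6 and 18.9 FPKM (0.55), 5.14 and 7.65 FPKM (0.49), and 1.28 and 2.38 FPKM (0.57). Leaving these out, SMARCD2 made up 49.0% of the sum of the 3 SMARCD genes in parental and 36.8% in resistant cells, where SMARCD3 had 37.3%. The ISWI motors differed from each other: SMARCA1 had 45.4 and 29.5 FPKM (-0.60) and SMARCA5 had 50.1 and 48.6 FPKM (-0.04). None of the 20 genes passed 2-fold, and 14 lay below 0. This count was 12 after division by the median ratio and 18 once both libraries had an equal sum. Under the latter scaling the median over all genes compared was -0.116. As deposited, 55.6% of all genes compared lay below 0.

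**Figure D3:**
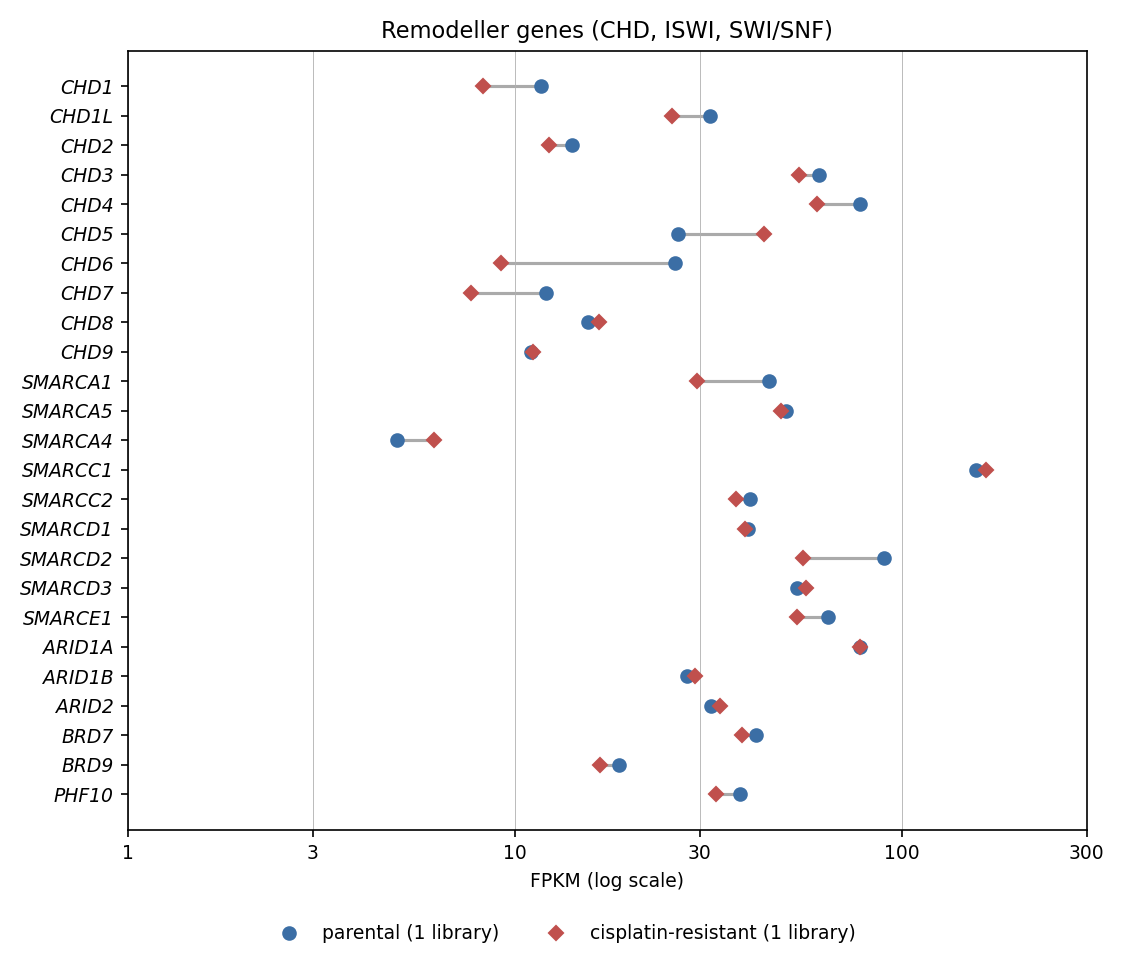
FPKM on a log axis (horizontal) of 25 CHD, ISWI and SWI/SNF genes (rows) in the parental library (blue circles) and the cisplatin-resistant library (red diamonds), 1 library each. CHD6 has the longest line, from 25.9 to 9.20 FPKM, CHD5 lies higher in the resistant library, and SMARCA4 lies below all other genes shown.

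ARID5B, a DNA-binding cofactor of the demethylase PHF2, had 14.0 FPKM in the parental and 35.2 FPKM in the resistant library (log2 ratio 1.27, and 1.08 with a pseudocount of 5). PHF2 itself had 10.8 and 11.4 FPKM (0.08). The related ARID3B had 16.5 and 11.1 FPKM (-0.53), ARID4A 16.0 and 11.5 FPKM (-0.44) and ARID4B 13.2 and 10.1 FPKM (-0.36). ARID5A, the closest relative of ARID5B, had 4.41 and 5.17 FPKM (0.19) and ARID3A 22.2 and 22.0 FPKM (-0.01). Thus 4 of the 6 measured genes of the ARID3 to ARID5 families lay below 0, or 3 after division by the median ratio. Among all genes compared, 55.6% lay below 0 on the deposited scaling.

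Histone lysine methyltransferases and demethylases all lay within 0.5 of 0. Over 18 methyltransferases the median was 0.07, which turned to -0.01 once both libraries had an equal sum. The highest ratio was that of NSD1 (22.8 and 30.1 FPKM, 0.39) and the lowest that of SETD7 (8.95 and 6.97 FPKM, -0.32). Enzymes of the KMT2 family, which mark promoters and enhancers, had 12.0 and 11.6 FPKM for KMT2A (-0.04) and 20.3 and 25.3 FPKM for KMT2D (0.30). SETDB1, a silencing methyltransferase, had the highest level of the group, with 43.0 and 36.7 FPKM (-0.22). EHMT1 had 21.0 and 17.1 FPKM (-0.29) and DOT1L 19.3 and 20.8 FPKM (0.10), and EHMT2 was not analysed here. Of 19 demethylases, 12 lay below 0 (median -0.09), or 16 once both libraries had an equal sum (median -0.17). The median over all genes compared was then -0.116, and as deposited 55.6% of all genes compared lay below 0. KDM6B, which removes the Polycomb mark, had 7.57 and 11.0 FPKM (0.49), whereas KDM6A, with the same target, had 14.4 and 13.8 FPKM (-0.05). KDM4B had the lowest ratio, at 14.6 and 10.7 FPKM (-0.42). KDM5A, a demethylase linked to drug-tolerant cancer cells, had 26.9 and 28.2 FPKM (0.07), KDM5B 21.2 and 15.9 FPKM (-0.40) and KDM5C 79.8 and 68.0 FPKM (-0.23). KDM1A, the demethylase of the CoREST complex, was the most abundant, with 107 and 88.6 FPKM (-0.27).

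Apart from HDAC10, genes of acetylation and deacetylation also lay within 0.5 of 0. KAT6B was the most abundant of the 7 acetyltransferases, with 121 and 124 FPKM (0.04), and its paralogue KAT6A had the lowest ratio of them (31.3 and 26.2 FPKM, -0.25). KAT2A had 69.2 and 74.6 FPKM (0.11), KAT2B 7.80 and 8.07 FPKM (0.04) and KAT8, which had the highest ratio, 20.0 and 22.3 FPKM (0.15). HDAC1 had 109 and 95.8 FPKM (-0.18) and HDAC2 100.1 and 92.9 FPKM (-0.11), the highest levels among 11 deacetylases. HDAC10, a deacetylase of polyamines, passed 2-fold through a locus without an assigned strand, at 13.1 and 28.5 FPKM (1.07). Its strand-assigned locus had 10.6 and 14.5 FPKM (0.42), and the sum of both gave 0.83. Also with a pseudocount of 5 (0.89), or after both libraries were brought to an equal sum (0.99), HDAC10 stayed inside the limit. HDAC9 had 11 loci, of which 2 had a strand: 1 had 28.9 and 37.4 FPKM (0.36) and the other 25.1 and 19.3 FPKM (-0.37). Once the relative worth of 1 read was divided out, the second pair had a quotient of 13 to 10, and such quotients of small integers are typical of few reads. The representing locus is 1 of these 11, and how much of the HDAC9 RNA the others hold is unknown. HDAC6, a deacetylase of tubulin, had 15.2 and 21.4 FPKM (0.47) and HDAC11 6.41 and 8.30 FPKM (0.33). HDAC8 had the lowest ratio of the class, at 12.7 and 9.63 FPKM (-0.36). Of the 7 sirtuins, deacetylases that use NAD, SIRT1 had 25.8 and 28.2 FPKM (0.12), SIRT6 7.07 and 9.46 FPKM (0.37) and SIRT5 11.6 and 9.87 FPKM (-0.21).

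Among readers, the bromodomain gene BRD3 had 12.9 and 10.5 FPKM (-0.27) and BRD8 67.4 and 63.7 FPKM (-0.08). The 17 ING and PHF readers spanned -0.40 for PHF21A (11.7 and 8.61 FPKM), a subunit of the CoREST complex, to 0.42 for PHF11 (5.61 and 7.83 FPKM), and PHF3 was the most abundant, with 63.5 and 54.1 FPKM (-0.23). The insulator protein gene CTCF had 69.5 and 67.7 FPKM (-0.04). For DNA methylation, the maintenance enzyme gene DNMT1 had 57.7 and 49.2 FPKM (-0.22), and the de novo enzyme genes had 8.02 and 8.63 FPKM for DNMT3A (0.09) and 7.80 and 10.5 FPKM for DNMT3B (0.39). The TET enzymes oxidise methylcytosine. TET3 had 5.35 and 8.16 FPKM, a ratio of 0.53 that was 0.35 at a pseudocount of 5, TET2, the most abundant, 17.6 and 17.9 FPKM (0.02), and TET1 1.46 and 1.05 FPKM (-0.27). Of the names outside chromatin, KATNA1 had the highest ratio (34.0 and 43.1 FPKM, 0.33), NSDHL the lowest (28.0 and 23.0 FPKM, -0.28) and PHF5A the highest level (62.0 and 56.8 FPKM, -0.12), and none passed 2-fold. Of the names with no role assigned, CBX3P2 had 2.05 and 1.16 FPKM (-0.50), KMT2E-AS1 5.84 and 6.41 FPKM (0.11) and SETD9 9.45 and 9.97 FPKM (0.07).

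Proteins that work with these enzymes but fall outside the name rule were read from a separate list, of which 154 of 164 genes were compared. At least 2-fold higher were 2 genes and at least 2-fold lower were 3, with a median ratio of -0.02. Neither count is above the share among all genes compared, 3.28% higher and 2.70% lower. RCOR1, the scaffold that joins KDM1A to HDAC1 and HDAC2 in CoREST, had 103.5 and 49.2 FPKM (-1.06). Its paralogue RCOR2, chosen after its values were seen, had 513 and 839 FPKM (0.71). CECR2, a bromodomain partner of SMARCA1 in a remodelling complex, had 22.0 and 7.89 FPKM (-1.37), so both genes of that pair were lower. BCL11A, a zinc finger protein found with SWI/SNF, had 21.5 and 9.82 FPKM, a ratio of -1.05 that was -0.84 at a pseudocount of 5. ASXL3, a relative of ASXL1, had 0.522 and 5.30 FPKM, a ratio of 2.05 that was 0.90 at a pseudocount of 5, and MECOM, a PR-domain zinc finger gene, had 0.273 and 17.0 FPKM (3.82). None of the 5 PRC2 partners of the list passed 2-fold (median -0.25), and MTF2, a relative of PHF19 that was chosen after its values were seen, had 23.2 and 15.9 FPKM (-0.52).

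Several of the lower chromatin genes lay among neighbours that were also lower. For each of 156 members with an annotated position, the median log2 ratio was taken over up to 10 compared genes on either side. Around CBX1, at chromosome 17 from 48070052 to 48101521 on the minus strand, 19 of 20 neighbours lay below 0, with a median of -0.60 over 0.917 Mb, and 5 were at least 2-fold lower. Around RNF2, at chromosome 1 from 185045364 to 185102608, 18 of 20 lay below 0 (median -0.38) over 10.3 Mb. Of these, 2 were at least 2-fold lower, and 2 of the 20 were at least 2-fold higher. Around SMARCD2, at chromosome 17 from 63832081 to 63843065, 17 of 20 lay below 0 (-0.25) over 2.20 Mb, and none passed 2-fold. The neighbours of SUZ12, at chromosome 17 from 31937018 to 32001045, had a median of -0.21 over 4.30 Mb, with 1 at least 2-fold higher. By contrast the neighbours of CHD6, at chromosome 20 from 41402101 to 41618494 on the minus strand, had a median of 0.00 over 6.09 Mb. Of these 20, 1 was at least 2-fold lower. Those of PCGF5, at chromosome 10 from 91163012 to 91284331, had -0.09 over 5.32 Mb, and 2 of the 20 were at least 2-fold higher. Those of ARID5B, at chromosome 10 from 61901300 to 62096944, had 0.12 over 11.6 Mb. Here 3 of the 20 were at least 2-fold higher and 1 was at least 2-fold lower. The neighbours of CHD5, at chromosome 1 from 6101793 to 6180123, had 0.03 over 2.84 Mb. Those of SMARCA1 had -0.05 and those of CHD7 -0.03, each over 10.8 Mb, and 1 of the 20 around CHD7 was at least 2-fold higher. Of the 10 members with a neighbour median of -0.2 or less, 8 lay below 0, as did 77 of the 140 with a median between -0.2 and 0.1 and 87 of all 156. Of the 6 members at least 1.5-fold lower, 3 (CBX1, RNF2 and SMARCD2) were among those 10, and the other 3 (CHD6, SMARCA1 and CHD7) had neighbour medians near 0. Chromosome 17 held 16 members, each with a neighbour median below 0 (-0.60 to -0.04). Of these 16 members, 11 lay below 0 themselves, and their median over all 16 was -0.14. Over 672 genes of that chromosome the median was -0.16 and 73.4% lay below 0, against -0.04 and 55.8% over all 11344 genes with a position and a strand. Neighbours of members close to each other overlap, and the part of position in these differences was not tested.

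**Figure D4:**
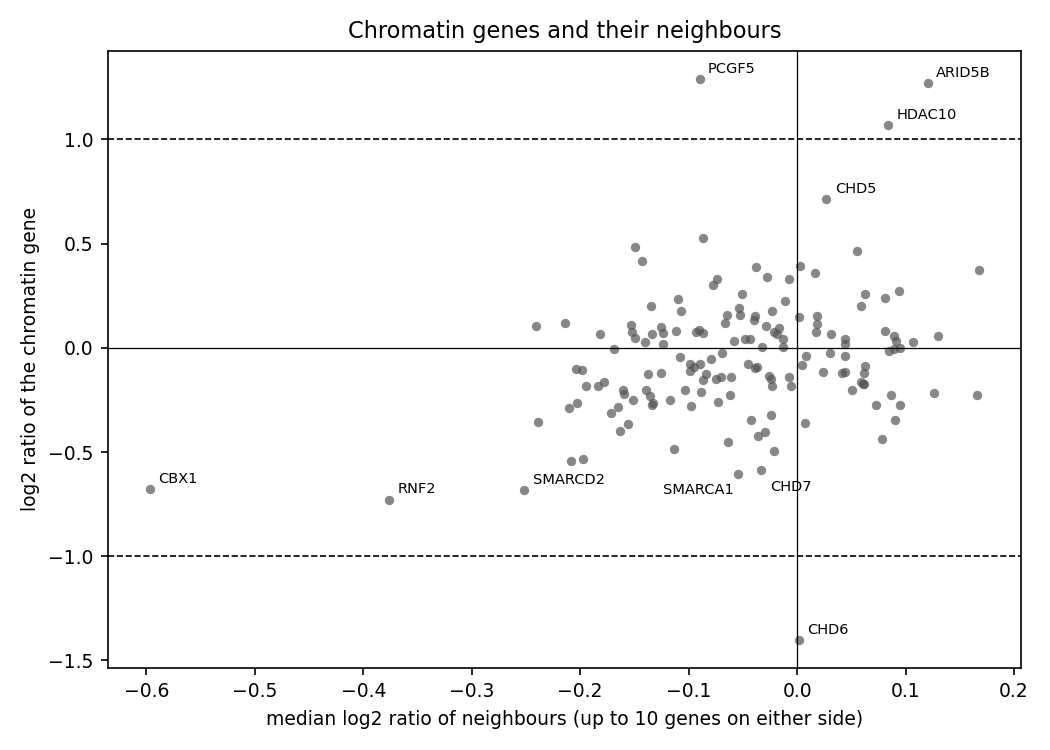
Log2 ratio of each of 156 chromatin genes (vertical axis, points) against the median log2 ratio of up to 10 compared genes on either side (horizontal axis). Dashed lines mark 2-fold. CBX1, RNF2 and SMARCD2 lie at the lower left, at neighbour medians of -0.60, -0.38 and -0.25, while CHD6 and PCGF5 lie far from 0 with neighbour medians of 0.00 and -0.09.

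Of the 157 genes, 37 had several loci, and 57 of the 60 loci that did not represent a name had no assigned strand. These loci reached at most 25.1 FPKM. Once the relative worth of 1 read (0.996) was divided out, 35 of the 60 had a quotient of 2 integers of at most 20 between the libraries, to a relative tolerance of 2e-05, as had 2 of the 157 representing loci. Such quotients are typical of few reads, whose number they do not give. A KDM5B locus of this kind had 3.48 and 0.547 FPKM (log2 ratio -1.53), a quotient of 19 to 3, where the representing locus had -0.40. In 21 of the 37 genes, loci lay on both sides of 0.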

How the data were processed

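Polyadenylated RNA of 2 samples, 1 per group, was sequenced from strand-preserving libraries, per the labels' protocols. The authors deposited 1 table of FPKM for 19217 loci, per the file headers, in 2 columns that match the sample descriptions in the labels (0 other columns). Per the submitters' processing notes, TopHat2 (no version) and build hg38 were used. Which program and annotation gave the FPKM is not given in the sources used here.

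Loci without a name (2919) or with a date for a name (23) were left out. A name with several loci was represented by that of highest mean FPKM, and shares of a sum used representing loci only. A minimum of 1 FPKM in at least 1 library left 12405 genes. The log2 ratio used a pseudocount of 1 on the deposited scaling, and a 2-fold limit replaced a test. Strands were inferred from the order of the loci with GENCODE release 29, of the same build: of 11755 strand-assigned loci with an annotated position, 98.7% lay on the annotated strand. This is not recorded in the table. Promoters came from RefSeq on GRCh38.p14, for 128 of the 157 members.

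Genes named were those past 2-fold, the highest and lowest ratio and the highest level of each role, 32 of 35 listed genes with a locus (RING1, EHMT2 and SMARCA2 were not analysed here, and the values of some named genes are not reported here), alternative subunits, and partners past 2-fold. Other members given as examples were chosen after their values were seen, as were the comparison with neighbours and its limits, the band of 0.5, the band of like level and the lineage markers. The members and lists were chosen with earlier results of these data known. Of 176 genes listed by role, 22 were not analysed here. Alternatives were pseudocounts of 0.1 and 5, a filter of 5 FPKM or none, both other scalings, summed loci, strand-assigned loci, a limit of 1.5-fold, and leaving out names outside chromatin. The procedure was tested on simulated data. Python 3.11.15, pandas 2.3.3, NumPy 2.4.6 and matplotlib 3.10.9 were used.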

Additional observations from a re-analysis of the deposited data

How the results depend on the processing

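The count of genes at least 2-fold higher was 3, and lay between 2 and 4 under all alternatives run: HDAC10 dropped out with a pseudocount of 5, an equal sum, summed loci and strand-assigned loci. The count at least 2-fold lower stayed at 1 under every alternative that kept the 2-fold limit and was 6 with the limit of 1.5-fold, which admits smaller ratios by construction. PCGF5, ARID5B and CHD6 stayed past 2-fold in each of these. The median log2 ratio of the 157 genes ran from -0.127 with sums scaled to be equal to -0.007 after division by the median ratio, where the medians of all genes compared were -0.116 and -0.003. A filter of 5 FPKM left 149 members, and leaving out names outside chromatin, here with the mitochondrial sirtuins SIRT3, SIRT4 and SIRT5, the antisense RNA and the pseudogene, left 144, with medians of -0.043 and -0.042. No paired analysis was possible because each group has 1 sample. The depth behind each value is unknown and limits the low genes most, such as TET1, SIRT4, KDM4D and KDM8.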
